A study of Homo sapiens with 32 samples.

Results

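The MYC and MAX network is a family of transcription factors that share a basic helix-loop-helix leucine zipper. The 9 genes listed for it here are MYC, MAX, MXD1, MXD3, MXD4, MXI1, MNT, MGA and MLX, chosen by name; 8 of them have a row among the 19023 genes of the deposited count table, and no level of MXD3 was analysed here. Levels were read in RPE-1, an established, telomerase-immortalised human line labelled as retinal pigment epithelial cells and wild type. The cells were deprived of serum for 18 h and then given serum, with samples at 0, 5, 10 and 15 h of stimulation. Each time had 4 RNA-seq libraries (total RNA depleted of rRNA) and 4 Ribo-seq libraries of footprints, the stretches of mRNA that translating ribosomes protect. The 0 h libraries are therefore from serum-starved cells, and no group of cells growing in serum throughout is among those compared.

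MYC binds DNA as a dimer with MAX, at the E-box CACGTG, and raises transcription of genes for ribosome assembly, nucleotide synthesis and growth. The MXD proteins (MXD1, MXD3, MXD4 and MXI1) and MNT also need MAX, bind the same boxes and recruit the SIN3 corepressor with its histone deacetylases, so that they oppose MYC. MGA is a large MAX partner of a Polycomb-type repressor complex. MLX resembles MAX but pairs with some MXD proteins, with MNT and with the glucose-responsive factors MLXIP and MLXIPL, whose best known target is TXNIP. In quiescent cells MYC is low and serum induces it as an early growth response.

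The E-box is the sequence that the whole network reads, so the promoters of the network's own genes were searched for it. In the 250 bases before each RefSeq transcription start (build GRCh38.p14), CACGTG, which reads the same on both strands, was found in the windows of MXD4, MNT and MLX. It was not among the letters of the windows of MAX, MXD1, MXD3, MXI1 or MGA, and no window of MYC was used. No window of these 8 genes, some of which have several, holds 2 or more boxes, and 188 of all 35116 windows do. Of all 35116 windows in the table, 6.34% hold the box, and 11.2% of 8961 genes tested in footprints hold it in at least 1 window. These 3 promoters are shown because they are the ones that hold the box. After serum MXD4 and MNT footprints fell and MLX footprints rose. The windows lie at chr4:2262110-2262359 on the minus strand for MXD4, at chr17:2401061-2401310 on the minus strand for MNT and at chr17:42566850-42567099 on the plus strand for MLX. The box begins 238, 193 and 50 bases before the start of MXD4, MNT and MLX, and is in capitals; each sequence is written 5′ to 3′ on the strand of its gene and stops at the base before the start.
MXD4: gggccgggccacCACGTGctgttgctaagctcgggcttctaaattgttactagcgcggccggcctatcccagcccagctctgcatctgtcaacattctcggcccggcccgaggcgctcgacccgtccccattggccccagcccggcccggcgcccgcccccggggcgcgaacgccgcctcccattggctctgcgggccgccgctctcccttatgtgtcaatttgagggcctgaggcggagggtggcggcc
MNT: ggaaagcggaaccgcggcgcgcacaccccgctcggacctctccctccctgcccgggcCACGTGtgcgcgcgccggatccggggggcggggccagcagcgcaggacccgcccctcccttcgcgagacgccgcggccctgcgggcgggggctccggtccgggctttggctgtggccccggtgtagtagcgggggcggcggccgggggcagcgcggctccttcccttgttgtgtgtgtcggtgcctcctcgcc
MLX: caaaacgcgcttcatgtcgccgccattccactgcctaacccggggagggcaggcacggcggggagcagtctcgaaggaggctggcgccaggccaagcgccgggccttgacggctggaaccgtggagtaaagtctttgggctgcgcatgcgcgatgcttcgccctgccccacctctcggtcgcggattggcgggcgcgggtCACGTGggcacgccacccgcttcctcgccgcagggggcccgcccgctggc
A match is a description of these letters, and binding was not measured.

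Total counts per library ran from 595851 to 1107470 in RNA and from 2851423 to 9901322 in footprints, so footprint values are the more precise. Levels are given as CPM, a gene's share of the counts of all tested genes after TMM scaling within an assay, with SD and n = 4. With no spike-in, every change is relative to the other genes, and more cells with a transcript cannot be told apart from more transcript per cell. A gene was called when its Benjamini-Hochberg adjusted p from edgeR's quasi-likelihood test, corrected over every gene tested, was under 0.05; changes are log2 with standard errors. All 13 listed markers of the retinal pigment epithelium had counts in RNA, and so did all 7 listed markers of neurons and endothelium. The most abundant of those 7, TUBB3, averaged 19.1 CPM in RNA and 1.13 CPM in footprints. RPE65 and TYR, of the visual cycle and pigment synthesis, had only 1 and 2 counts over the 16 RNA libraries. RLBP1, TYRP1, PMEL and SERPINF1 had 20, 15, 4 and 14. The lineage factors MITF, PAX6 and OTX2 averaged 25.1, 16.3 and 7.85 CPM in RNA and 44.2, 20.6 and 18.1 CPM in footprints, and the keratins KRT8 and KRT18 673 and 790 CPM in RNA. These are means over all times. Of the 10 retinal pigment epithelium markers tested in footprints at 5 h, 2, KRT8 and KRT18, were higher and 5 lower. Among all genes 35.2% were higher and 40.5% lower. OTX2 and PAX6 footprints fell from 37.1 and 36.1 CPM at 0 h to 7.40 and 9.44 CPM at 5 h. Among 8 blood cell markers, HBB and HBA1 had no count in either assay and the most abundant, CD68, averaged 16.7 CPM in RNA and 92.8 CPM in footprints.

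In footprints all 8 genes could be tested, and 7 changed by 5 h: MYC, MLX, MXD1 and MGA were higher, and MXD4, MXI1 and MNT were lower, than at 0 h. Against those 4 higher and 3 lower, 35.2% of all genes tested were higher and 40.5% lower, so a call by itself is common in these data. At 10 h 3 genes were higher and 4 lower (39.4% and 39% of all genes), and at 15 h again 3 and 4 (40.1% and 39.6%). From 5 h to 10 h 1 gene, MGA, was higher and 6 were lower (31% and 30.7% of all genes). From 10 h to 15 h 3 genes, MYC, MLX and MXD4, were lower (20.2% of all genes were lower and 20.8% higher), and 6 were lower at 15 h than at 5 h (36.1% lower and 34.8% higher among all genes).

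In RNA only 6 of the 8 passed the filter on low counts. MXD1 and MNT did not, with 25 and 18 counts summed over the 16 RNA libraries. At 5 h and again at 10 h, MYC and MLX were higher and MXD4 and MXI1 lower; among all genes tested 19.2% were higher and 16.7% lower at 5 h, and 23.3% and 21.5% at 10 h. At 15 h MYC was higher and MXD4 and MXI1 lower (25.4% of all genes in each direction). MXD4 was called lower from 5 h to 10 h (9.56% of all genes were lower and 10.1% higher) and from 10 h to 15 h (2.11% and 3.81%). From 5 h to 15 h MYC, MXD4 and MLX were lower and MGA higher (17.7% and 14.8%).

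**Figure D1:**
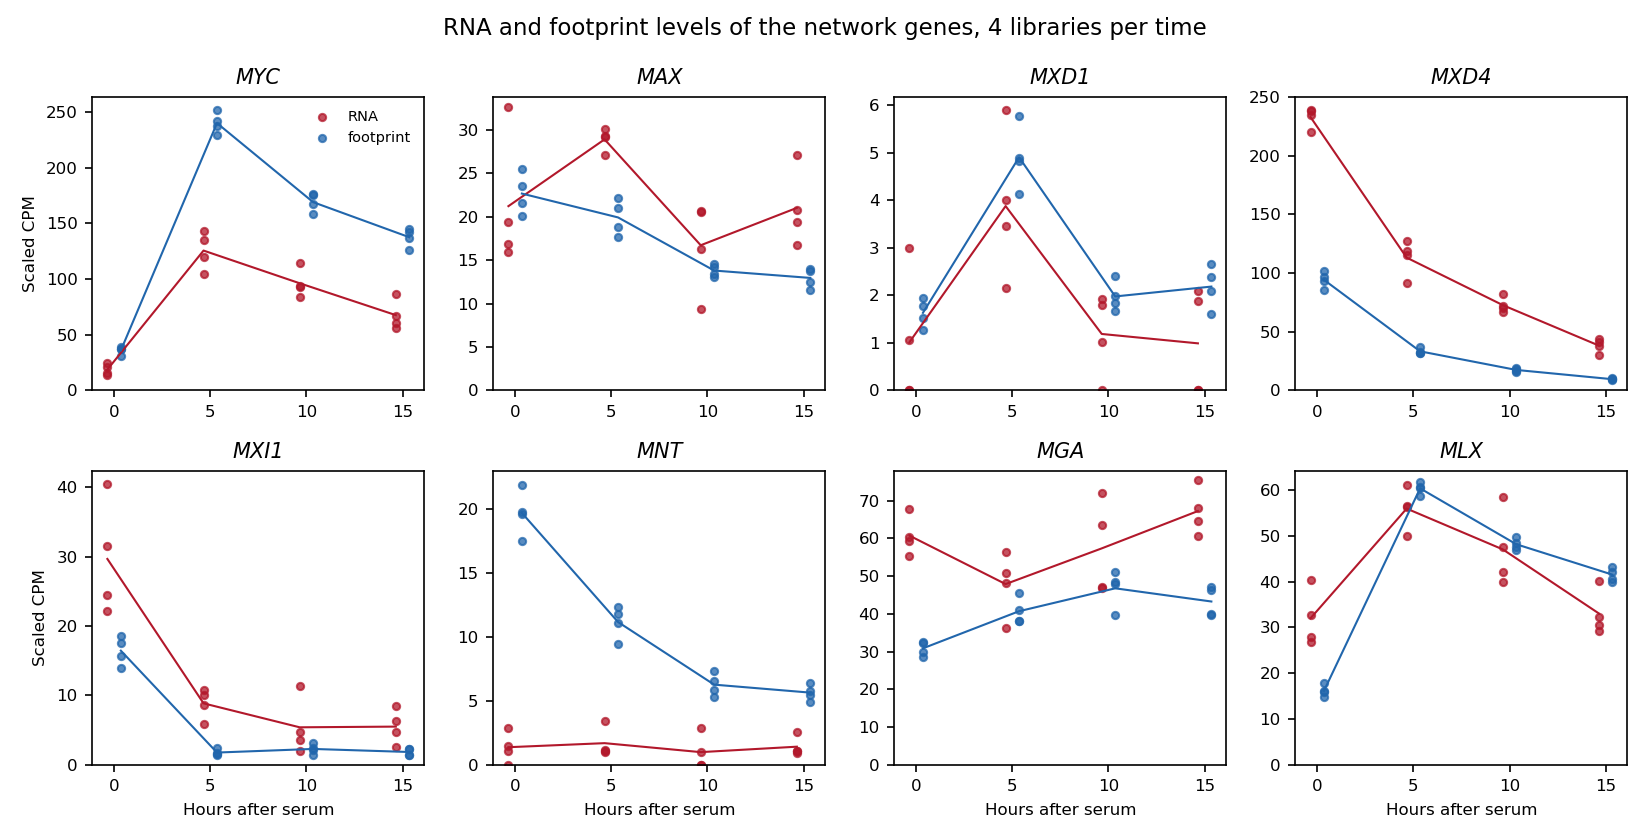
RNA (red) and footprint (blue) levels of the 8 network genes in scaled CPM against hours after serum; points are libraries (4 per time and assay), lines join the group means, and each panel has its own axis from 0. MYC and MLX are highest at 5 h in both assays, and MXD4 falls at every step, to between 29.9 and 43.9 CPM in RNA and between 8.63 and 10.1 CPM in footprints at 15 h.

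MYC (ENSG00000136997) rose in RNA and in footprints by similar amounts. Its RNA stood at 20.6, 24.4, 15.9 and 13.5 CPM in the 4 libraries of 0 h and at 135, 143, 104 and 120 CPM at 5 h. Its footprints stood at 38.5, 30.4, 36.8 and 37.5 CPM at 0 h and at 242, 229, 237 and 252 CPM at 5 h. The groups did not overlap in either assay. The rise at 5 h was 2.72 ± 0.22 in RNA (adjusted p = 1.68e-09, edgeR) and 2.75 ± 0.07 in footprints (adjusted p = 4.25e-31), a 6.72-fold rise in the latter.

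MYC then declined without returning to its starved level. Footprints averaged 169 ± 8.29 CPM at 10 h and 138 ± 8.60 CPM at 15 h, a fall of 0.51 ± 0.05 on the log2 scale from 5 h to 10 h and of 0.30 ± 0.06 from 10 h to 15 h, both called. At 15 h they were still 3.85-fold above 0 h. In RNA the means were 125 ± 17.4, 96.2 ± 12.9 and 67.5 ± 13.7 CPM at 5, 10 and 15 h; the step from 10 h to 15 h, −0.51 ± 0.18, had an adjusted p of 0.107, and without replicate 2 of the 15 h RNA it was −0.62 with an adjusted p of 0.0466.

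MAX (ENSG00000125952, chr14:65006101-65102695), the shared partner, was lower in footprints at 10 h and 15 h. Its footprints were 22.7 ± 2.34, 19.9 ± 2.06, 13.8 ± 0.72 and 13 ± 1.12 CPM at 0, 5, 10 and 15 h. The 5 h and 0 h libraries overlapped, and that change was −0.20 ± 0.10 (adjusted p = 0.0615); it passed the threshold without replicate 1 of the 0 h footprints (−0.24, adjusted p = 0.0409) or replicate 2 of the 5 h footprints (−0.26, adjusted p = 0.0249). At 10 h and 15 h the groups no longer overlapped 0 h, and MAX footprints were lower by −0.73 ± 0.10 and −0.83 ± 0.11. MAX RNA was not called in any of the 6 contrasts at 310 counts over 16 libraries, and its interval at 5 h ran from −0.12 to 0.99. Only 192 bases of MAX were counted in the deposited table, which limits its depth.

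Among the MXD genes, MXD4 and MXI1 fell steeply, whereas MXD1 rose for a short time. MXD4 (ENSG00000123933) was the most abundant antagonist in starved cells, with RNA at 239, 238, 235 and 220 CPM and footprints at 96.4, 92.8, 85.4 and 102 CPM. At 15 h its RNA was 41.0, 29.9, 43.9 and 37.5 CPM and its footprints were 9.20, 9.75, 10.1 and 8.63 CPM. No library of a later time overlapped those of an earlier time in either assay. The fall at 15 h against 0 h was −2.62 ± 0.15 in RNA and −3.31 ± 0.10 in footprints, the latter 9.92-fold.

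MXI1 (ENSG00000119950, chr10:110207605-110287365), also called MXD2, reached its low level by 5 h and stayed there. Its footprints went from 13.9, 15.7, 17.6 and 18.5 CPM at 0 h to 2.37, 1.49, 1.69 and 1.39 CPM at 5 h, a change of −3.24 ± 0.23 (adjusted p = 1.55e-18, edgeR). They averaged 2.25 ± 0.76 CPM at 10 h and 1.82 ± 0.47 CPM at 15 h, and no step after 5 h was called. Its RNA fell by 1.70 ± 0.37 on the log2 scale at 5 h, from 29.7 ± 8.14 to 8.84 ± 2.17 CPM.

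MXD1 (ENSG00000059728, chr2:69915109-69942945) moved in the other direction. Its footprints were 1.78, 1.27, 1.52 and 1.95 CPM at 0 h and 4.88, 4.14, 5.78 and 4.82 CPM at 5 h, with no overlap and a change of 1.58 ± 0.26 (adjusted p = 2.41e-07, edgeR). By 10 h they were down at 1.97 ± 0.31 CPM, a fall of 1.32 ± 0.21 on the log2 scale from 5 h. These levels rest on few reads, 33 footprints over the 4 libraries of 0 h and 141 over those of 5 h, and the gene had 3 and 13 RNA counts in the same groups.

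MNT (ENSG00000070444, chr17:2384073-2401060), the antagonist that is made in most cell types, fell in footprints at 5 h and 10 h. The libraries stood at 17.5, 19.8, 19.6 and 21.9 CPM at 0 h, at 12.3, 9.44, 11.1 and 11.8 CPM at 5 h and at 7.33, 6.56, 5.84 and 5.30 CPM at 10 h, none overlapping between those times. The changes were −0.83 ± 0.12 at 5 h and −1.82 ± 0.13 at 15 h against 0 h. Its RNA was too sparse to test, so whether RNA fell with the footprints was not tested.

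MGA (ENSG00000174197, chr15:41621224-41769940) rose modestly in footprints. Its level was 30.9 ± 1.93 CPM at 0 h and 40.7 ± 3.58, 46.8 ± 4.97 and 43.3 ± 4.02 CPM at 5, 10 and 15 h, and each later group lay above the starved one. The changes against 0 h were 0.40 ± 0.09, 0.61 ± 0.09 and 0.47 ± 0.09. The rise from 5 h to 10 h, 0.21 ± 0.08 (adjusted p = 0.0186, edgeR), was lost without replicate 4 of the 5 h footprints (0.18, adjusted p = 0.0653) or replicate 2 of the 10 h footprints (0.18, adjusted p = 0.064). MGA RNA was higher at 15 h than at 5 h by 0.48 ± 0.18 (adjusted p = 0.047), which was lost without replicate 1 or 4 of 5 h or replicate 1 of 15 h (adjusted p from 0.0636 to 0.122).

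MLX (ENSG00000108788) rose in footprints more than in RNA. Its RNA was 27.9, 32.8, 40.4 and 26.9 CPM at 0 h and 50, 61.2, 56.5 and 56.3 CPM at 5 h. Its footprints were 17.8, 14.7, 16.1 and 15.9 CPM at 0 h and 58.7, 61.9, 60.4 and 60.7 CPM at 5 h. The groups stood apart in both assays, with changes of 0.81 ± 0.20 in RNA and 1.92 ± 0.08 in footprints. By 15 h MLX RNA was back at 33.0 ± 4.94 CPM, against 32 ± 6.19 CPM at 0 h, while its footprints were at 41.5 ± 1.45 CPM, 2.60-fold above 0 h. The RNA call at 10 h, 0.57 ± 0.20 (adjusted p = 0.0225, edgeR), was lost without replicate 1 or 4 of 0 h or replicate 2 of 10 h (adjusted p from 0.0523 to 0.0668).

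**Figure D2:**
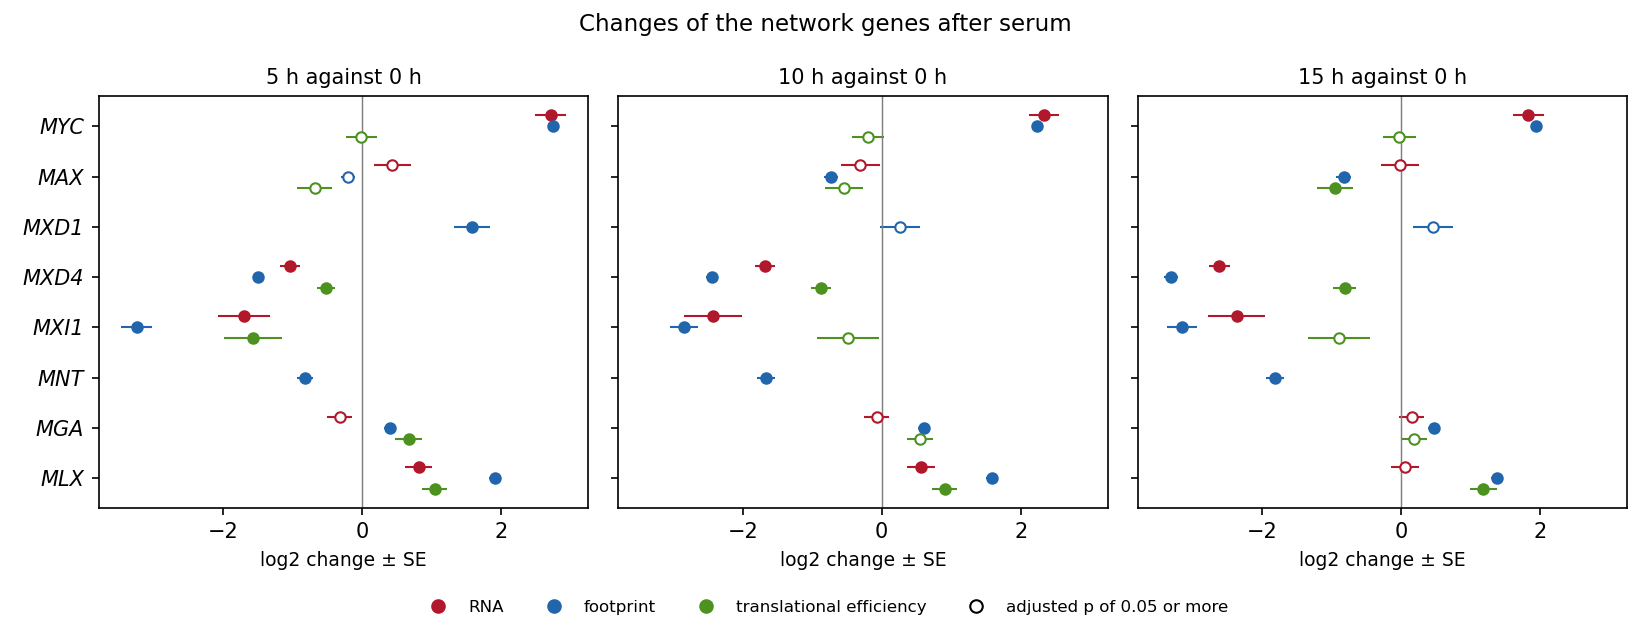
Log2 changes against 0 h with standard errors for the 8 network genes in RNA (red), footprints (blue) and translational efficiency (green); filled points passed an adjusted p of 0.05, open points did not, and MXD1 and MNT have footprint values only. The efficiency of MYC lies at −0.01, −0.20 and −0.03, and that of MLX at 1.05, 0.91 and 1.18, at 5, 10 and 15 h.

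Translational efficiency, the footprint change minus the RNA change of the same gene, was called for MLX and MXD4 at all 3 times, and for MYC its adjusted p lay between 0.694 and 0.998. Of the 6 genes tested at 5 h, MLX and MGA rose and MXD4 and MXI1 fell in efficiency, where 4.13% of all genes rose and 2.34% fell. At 10 h MLX rose and MXD4 fell (5.44% and 1.8% of all genes), and at 15 h MLX rose and MXD4 and MAX fell (7.03% and 3.94%).

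MLX carried 0.503 footprint CPM per RNA CPM at 0 h and 1.08, 1.02 and 1.26 at 5, 10 and 15 h. The changes were 1.05 ± 0.18, 0.91 ± 0.18 and 1.18 ± 0.19 (adjusted p = 8.16e-05, 0.000663 and 2.07e-05, edgeR), and all 3 stayed called in each fit that left out 1 library. MXD4 went the other way, from 0.404 at 0 h to 0.294, 0.239 and 0.247. Its changes were −0.52 ± 0.13, −0.87 ± 0.14 and −0.82 ± 0.17; the first was lost without replicate 4 of the 5 h RNA (−0.42, adjusted p = 0.0802), and the other 2 stayed called in each such fit.

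The efficiency of MYC was 1.93 footprint CPM per RNA CPM at 0 h and 1.92 at 5 h. Its change at 5 h was −0.01 with an interval of −0.47 to 0.45, so a true change within those bounds is not excluded. MXI1 changed by −1.57 ± 0.42 at 5 h (adjusted p = 0.0173, edgeR), which was lost without replicate 4 of the 5 h RNA (−1.40, adjusted p = 0.0895), and its later values, −0.49 and −0.89, were not called. MGA at 5 h, 0.67 ± 0.20 (adjusted p = 0.0301), lost its call in 9 of the 16 fits that left out 1 library: RNA replicates 1 and 2 of 0 h and of 5 h, and footprint replicates 1, 3 and 4 of 0 h and 1 and 3 of 5 h (adjusted p from 0.0511 to 0.0904). MGA at 10 h, 0.55 ± 0.19 (adjusted p = 0.0659), was called without replicate 4 of the 10 h RNA or of the 10 h footprints (0.71 and 0.63). MAX at 15 h, −0.95 ± 0.26 (adjusted p = 0.0131), was lost without RNA replicate 2 or 3 of 0 h or replicate 2 of 15 h (adjusted p from 0.0572 to 0.0737). MAX was also called at 5 h and 10 h without RNA replicate 1 of 0 h (−1.01 and −0.88), the library with the highest MAX RNA of that time, 32.7 CPM.

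Levels of different genes were set side by side as CPM per kilobase of counted coding length. For MAX and MXD1 the counted lengths, 192 and 488 bases, cover only part of the coding region, so their density, rank and shares, and the ratio of MYC to MAX, describe that part. In starved cells the order of footprint density was MXD4 (165 ± 12.2), MAX (118 ± 12.2), MYC (27.4 ± 2.81), MLX (23.9 ± 1.88), MXI1 (19.9 ± 2.48), MNT (11.7 ± 1.08), MGA (3.38 ± 0.21) and MXD1 (3.34 ± 0.60). The ranges of MYC and MLX, of MLX and MXI1, and of MGA and MXD1 overlapped. At 5 h MYC led with 184 ± 7.45, followed by MAX (104 ± 10.7), MLX (89.5 ± 2.0), MXD4 (58.2 ± 4.73), MXD1 (10.0 ± 1.38), MNT (6.60 ± 0.73), MGA (4.46 ± 0.39) and MXI1 (2.10 ± 0.53), and no neighbours overlapped. At 15 h MYC (105 ± 6.59) was still first, MAX (67.5 ± 5.84) and MLX (61.6 ± 2.15) overlapped, and MXD4 was at 16.5 ± 1.11. In footprints MYC thus went from the third place at 0 h to the first at 5, 10 and 15 h, and MXD4 from the first to the fourth, behind MAX and MLX. In RNA MXD4 was still first at 5 h and 10 h and second, behind MAX, at 15 h. MYC had the third highest RNA mean at each of those times, but its range overlapped that of MLX each time. Its RNA range also overlapped that of MAX at 10 h and that of MXD4 at 15 h.

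The footprint density of MYC was then divided by the sum of its 4 measured antagonists, MXD1, MXD4, MXI1 and MNT. The ratio was 0.147, 0.119, 0.152 and 0.132 in the libraries of 0 h and 2.47, 2.44, 2.12 and 2.58 in those of 5 h. It was 3.22, 3.25, 3.19 and 3.02 at 10 h and 4.29, 4.08, 3.81 and 3.76 at 15 h. No time overlapped another, and the ratio kept rising after MYC itself had begun to fall, while the antagonists' sum lay between 72.0 and 85.7 at 5 h and between 24.5 and 28.7 at 15 h. In RNA the ratio was 0.0318 ± 0.0081, 0.449 ± 0.103, 0.537 ± 0.0398 and 0.702 ± 0.252; the 5, 10 and 15 h libraries overlapped, and 1 library, replicate 2 of 15 h at 1.07, was above 1. No p is given, since the ratio sums over chosen genes.

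MXD4 made up 82.6 ± 1.69% of the antagonists' footprint density at 0 h and 62.3 ± 2.79% at 15 h. MXD1 went from 1.67 ± 0.23% to 13 ± 0.86% at 5 h and 16.8 ± 2.72% at 15 h. MNT went from 5.83 ± 0.47% to 12.6 ± 1.21% at 15 h, a larger share of a smaller sum. MYC relative to MAX lay between 0.175 and 0.281 at 0 h, between 1.52 and 2.02 at 5 h and between 1.44 and 1.84 at 15 h, so MYC passed its partner in footprint density by 5 h and stayed above it.

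**Figure D3:**
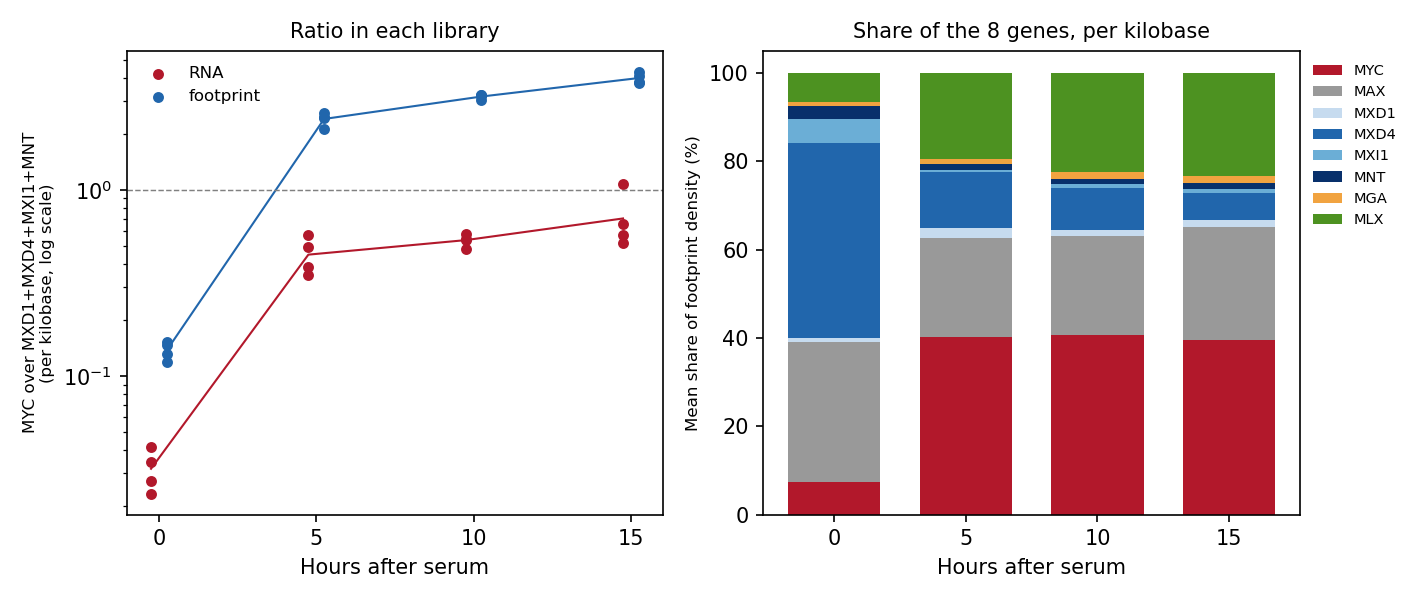
Left, MYC over the sum of MXD1, MXD4, MXI1 and MNT, per kilobase, in each library (log axis; dashed line at 1; lines join group means); right, mean share of each of the 8 genes in their summed footprint density. The footprint ratio goes from 0.119 to 0.152 at 0 h to 3.76 to 4.29 at 15 h, and the MYC share goes from 7.36% to 39.7% while that of MXD4 goes from 44.3% to 6.21%.

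The genes whose footprints most resembled each member were found by Pearson's r of log2(CPM + 1) over the 16 footprint libraries, among up to 7423 genes; all points share the same 4 times, so a high r says only that the time courses have like shapes. MLX (r = 0.996) was itself the closest of 7422 genes to MYC, followed by MARS2 (0.995), the mitochondrial methionyl-tRNA synthetase, RRP12 and ODC1 (both 0.994), the latter the rate-limiting enzyme of polyamine synthesis, and YBX3 (0.994). For MLX the closest were ODC1 (0.997) and MYC. In RNA the closest to MYC were AKAP12 (0.987), WDR1, CALR, CLMP and NSUN2 (0.975). MXD4 was closest to SCD (0.996), the fatty acid desaturase, and SRP14; MXI1 to IDI1 (0.992), an enzyme of the cholesterol pathway, and CHD6; MNT to JUP (0.988) and LIPG; MXD1 to LYSMD3 (0.98) and N4BP2; MAX to TTYH3 (0.967) and CUTA; MGA to SESTD1 (0.943) and LIG3.

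Of 4 further genes of the network, MLXIP was the only one with more than a trace of reads. MYCN, MYCL and MLXIPL had at most 7 footprints summed over the 4 libraries of any time. MLXIP (MondoA), which pairs with MLX, was at 18.4 ± 1.58, 29.2 ± 1.63, 23.2 ± 3.16 and 17.2 ± 0.51 CPM in footprints at 0, 5, 10 and 15 h. It was higher at 5 h by 0.66 ± 0.10 (adjusted p = 1.52e-07, edgeR), with no overlap, and by 15 h its libraries overlapped those of 0 h.

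Known targets of the MLX branch split. TXNIP, an inhibitor of glucose uptake, fell in footprints from 983 ± 67.8 to 31.9 ± 5.27 CPM at 5 h, a change of −4.94 ± 0.08, and was up again at 274 ± 16.1 CPM by 15 h. In RNA it fell by 5.11 ± 0.20 on the log2 scale at 5 h. ARRDC4, a TXNIP relative, had a footprint change of −2.13 ± 0.31 at 5 h on 110 and 35 counts. KLF10, a zinc finger factor also induced by TGF-beta, went the other way, from 35.1 ± 2.45 to 134 ± 13.3 CPM, and PFKFB3, a regulator of glycolysis, changed by 0.50 ± 0.12.

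Genes that MYC is known to induce rose together. Of 63 listed, mainly ribosome assembly and nucleotide synthesis genes, 58 were tested in footprints; 46 were higher and 4 lower at 5 h, 55 and 1 at 10 h, and 56 and 2 at 15 h. Among all genes 35.2% were higher and 40.5% lower at 5 h, 39.4% and 39% at 10 h, and 40.1% and 39.6% at 15 h. Their median footprint change was 1.27, 1.83 and 1.79 at the 3 times, against −0.07, −0.02 and −0.01 over all genes tested. In RNA 28 of 55 were higher and 3 lower at 5 h, and 40 and 42 were higher at 10 h and 15 h, where 19.2%, 23.3% and 25.4% of all genes were higher at the 3 times. In efficiency 10, 11 and 13 of 54 rose at 5, 10 and 15 h, against 4.13%, 5.44% and 7.03% of all genes. The list's genes also respond to other serum signals, and the part of MYC in their rise was not tested.

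The largest rises among those targets in footprints at 5 h were ODC1 (2.78 ± 0.06), NOP16 (2.77 ± 0.12) and RRP12 (2.48 ± 0.07), the last 2 being factors of ribosome assembly. In RNA they were NIP7 (2.99 ± 0.27), another assembly factor, NOP16 (2.62 ± 0.25) and ODC1 (2.47 ± 0.11). Among the exceptions at 5 h in footprints were the nucleoside transporter SLC29A2 (−3.11 ± 0.22), the DNA repair enzyme UNG (−0.91 ± 0.08) and the kinase MAP3K6 (−0.28 ± 0.11). Of the 4 genes lower there, these 3 are named by the rule given with the processing below. In RNA the exceptions were TMEM97, MCM5 and UNG (−1.39, −1.01 and −0.66). UNG and MAP3K6 were above their 0 h level by 10 h (1.54 and 0.41), and SLC29A2 was still lower at 15 h, by −3.95 ± 0.28. Of the 53 listed targets with a promoter window that was searched, 18 (34%) hold CACGTG, the box in capitals in the 3 promoters above.

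Genes that MYC is known to repress moved in both directions: of 10 tested in footprints at 5 h, 4 were higher and 6 lower, with a median of −0.59, where 35.2% of all genes were higher and 40.5% lower. The cell-cycle inhibitor CDKN2C (−3.23 ± 0.19), the growth factor receptor PDGFRB (−1.96 ± 0.05) and COL1A1 (−0.59 ± 0.15) fell. NDRG1 (1.70 ± 0.08), GADD45B (1.11 ± 0.09) and THBS1 (0.97 ± 0.09) rose. In RNA NDRG1, THBS1 and GADD45B rose (1.79, 0.96 and 0.94) and CDKN2C and PDGFRB fell (−3.32 and −1.74). In footprints 2 of the 10 were higher and 7 lower at 10 h (39.4% and 39% of all genes). At 15 h 4 were higher and 6 lower (40.1% and 39.6%). The list's footprint medians were −0.70 and −1.26 at those times. In RNA 3 of 7 were higher and 2 lower at 15 h, with a median of 0.32 (25.4% of all genes in each direction).

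**Figure D4:**
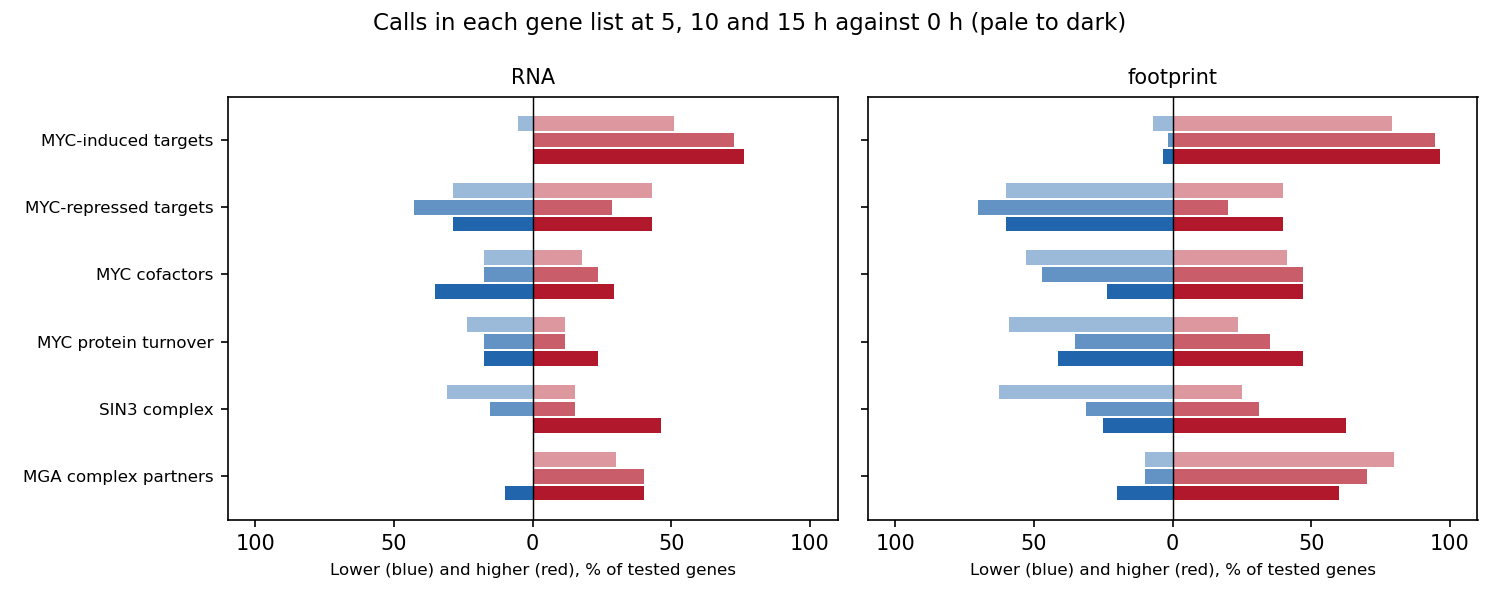
Share of the tested genes of 6 lists called higher (red, right) or lower (blue, left) than at 0 h in RNA and in footprints, at 5, 10 and 15 h from pale to dark. MYC-induced targets are mostly higher in footprints, 46 of 58 at 5 h and 56 of 58 at 15 h, and the SIN3 list goes from 10 of 16 lower at 5 h to 10 of 16 higher at 15 h.

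The SIN3 corepressor, which MXD proteins and MNT recruit, had 4 of 16 genes higher and 10 lower in footprints at 5 h, and 10 higher and 4 lower at 15 h. The shares over all genes were 35.2% higher and 40.5% lower at 5 h, and 40.1% and 39.6% at 15 h. The list's median was −0.49 over 16 genes in footprints and 0.20 over the 13 tested in RNA at 5 h, and 0.41 and 0.24 at 15 h. The 2 medians cover different sets of genes, so their signs at 5 h do not compare the assays. The scaffold SIN3A, which binds the MXD proteins directly, went from 130 CPM at 0 h to 43.3 CPM at 5 h (−1.60 ± 0.08) and was at 88.7 CPM at 15 h (−0.55 ± 0.07). SAP30 (−2.09 ± 0.19) and ARID4A (−1.41 ± 0.10) also fell at 5 h, while the histone deacetylases HDAC2 (0.47 ± 0.09) and HDAC1 (0.21 ± 0.05) and the histone-binding RBBP4 (0.20 ± 0.06) rose. In RNA 2 of 13 were higher, HDAC1 and ING2 (0.40 and 0.90), and 4 lower at 5 h, with SAP30, SIN3A and ARID4A at −1.71, −1.67 and −0.87, where 19.2% of all genes were higher and 16.7% lower. At 15 h 6 of the 13 were higher in RNA, against 25.4% of all genes.

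Of 10 partners of MGA in its Polycomb-type complex, 8 were higher and 1 lower in footprints at 5 h, where 35.2% of all genes were higher and 40.5% lower. WDR5 (0.93 ± 0.10), PCGF6 (0.61 ± 0.13) and L3MBTL2 (0.56 ± 0.10) rose most, and RYBP fell by 0.26 ± 0.10 on the log2 scale. In RNA 3 of 10 rose, YAF2, WDR5 and TFDP1 (0.91, 0.71 and 0.50), against 19.2% of all genes.

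Of 17 cofactors of MYC, 7 were higher and 9 lower in footprints at 5 h, near the shares over all genes of 35.2% higher and 40.5% lower. WDR5, which also docks MYC on chromatin, CCNT1 (0.90 ± 0.12), the cyclin of the elongation kinase, and the helicase RUVBL1 (0.59 ± 0.06) rose. The acetyltransferases CREBBP (−0.90 ± 0.06) and KAT5 (−0.57 ± 0.07) and the chromatin remodeller subunit BPTF (−0.90 ± 0.06) fell. In RNA 3 rose, CCNT1, WDR5 and RUVBL1 (1.09, 0.71 and 0.63), and 3 fell, KAT2A, KAT5 and CREBBP (−0.77, −0.57 and −0.54), again near the 19.2% higher and 16.7% lower of all genes.

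Of 17 genes that set the lifetime of the MYC protein, 4 were higher and 10 lower in footprints at 5 h, against 35.2% and 40.5% of all genes. At 10 h 6 were higher and 6 lower (39.4% and 39% of all genes), and at 15 h 8 and 7 (40.1% and 39.6%). USP36, a nucleolar deubiquitinase that stabilises MYC, was the largest riser (1.62 ± 0.12, from 14.2 to 43.0 CPM), followed by TRIM32 (0.30 ± 0.06) and SET (0.28 ± 0.08). USP28, another MYC deubiquitinase, AURKA and CIP2A fell (−1.15 ± 0.08, −1.14 ± 0.15 and −0.98 ± 0.12). In RNA FBXW7, the ubiquitin ligase component that targets MYC, and SET rose (0.53 and 0.44), and AURKA, HUWE1 and USP22 fell most (−1.18, −0.83 and −0.79). FBXW7 footprints were not called at 5 h (0.21 ± 0.22).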

How the data were processed

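The deposited table holds raw counts per gene for 16 RNA and 16 footprint libraries; the authors aligned with STAR 2.5.4a and counted with featureCounts 1.5.1, per the submitters' processing notes, on GRCh38. The library kit is the same for both assays, per the labels' protocols; strand setting, annotation release and use of molecular identifiers: not given in the sources used here. Deposited gene lengths are a multiple of 3 in 96.46% of genes and are read as coding length. All 32 columns were matched to samples by label.

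Genes passing edgeR's filterByExpr were fitted with edgeR 4.0.16 (R 4.3.3; TMM, robust quasi-likelihood, time as the factor): 8775 in RNA, 10959 in footprints and, for the assay-by-time interaction, 8736 in both. The 2-sided p-values were adjusted by Benjamini-Hochberg over all genes; intervals are 95%. The series' design text calls the 4 libraries of a group biological replicates; the closest pair of any group differed by more than sampling noise. Members and lists were chosen with earlier results of these data known. Named genes are all members, the closest time courses (mean of at least 10 CPM), and up to 3 risers and 3 fallers per list and assay at 5 h. Those risers and fallers were drawn from called genes with a mean of at least 10 CPM at 0 h or 5 h. The fits were tested on simulated data with 1 spread for all genes of an assay. At 5 h against 0 h, 14.5% of 1.5-fold and 72.9% of 2-fold changes were recovered in RNA. The shares were 85.5% and 97.1% in footprints, and 10.9% and 62.9% in efficiency. CPM divide by the counts of tested genes, a denominator chosen after seeing the data and partly so that levels matched an earlier account of them; the tests do not use it. DESeq2 1.42.0 and other settings were alternatives.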

Additional observations from a re-analysis of the deposited data

Results flagged for a closer look

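In 56 groups of 4 libraries (each tested network gene, time and assay), 1 library stood apart from its group by Dixon's test, where chance alone gives about 1 in 20 groups. It was MXD4 in footprints at 5 h, where replicate 3 was at 37.2 CPM and the others lay between 31.4 and 32.2 CPM. That library remained below every 0 h library and above every 10 h library, and MXD4 footprints kept their call at 5 h without it.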

How the results depend on the processing

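Counts of network genes called were recomputed in the 15 comparisons. With DESeq2, RLE factors, no filter on low counts, or only the times compared, each count was within 1.5 times the reported one. No change reversed its direction where it was called. With the replicate block, the RNA counts at 10 h against 5 h and at 15 h against 10 h went from 1 to 3, adding MYC and MAX in the first and MYC and MLX in the second, and no other count moved as far. Over all genes the block raised the RNA calls at 15 h against 10 h from 519 to 1170, and the efficiency calls at 5, 10 and 15 h from 565, 632 and 958 to 1048, 1018 and 1542; DESeq2 gave 899 and 1442 at 5 h and 15 h. The 519 became 333, 341 or 343 without replicate 3 of the 10 h RNA or replicate 1 or 4 of the 15 h RNA. The labels do not say that a number marks a shared culture or day. Deviations of same-numbered libraries correlated from −0.25 to 0.54 in RNA (median 0.18, 17 of 24 pairs over 0.1; for different numbers median −0.07, 14 of 72), and from −0.07 to 0.19 in footprints (median 0.04, 3 of 24). Since not every pair was over 0.1, the numbers were not taken to pair the samples; 3 of 16 RNA and 3 of 16 footprint libraries correlated best with their own number at every other time. Leaving out 1 library gave 1 to 2 genes for RNA at 15 h against 10 h and 2 to 4 for efficiency at 5 h, the low value being without replicate 4 of the 5 h RNA. With no filter, MGA RNA at 15 h against 5 h had an adjusted p of 0.0509, and with DESeq2 MGA footprints at 10 h against 5 h had 0.0618 and MGA efficiency at 10 h 0.0252. Library totals without TMM scaling moved 14 of 64 per-length levels by over 1 SD, at most 1.17-fold, and cannot move ratios within a library. The total of all genes as denominator, an alternative chosen after seeing the data, moved no level by over 1 SD and at most by 1.71%. RNA depth limits MXD1, MNT, MXI1 and MAX, and efficiency could not be tested for MXD1 and MNT.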

Other observations

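MNT had far more footprints than RNA reads. Over the 16 libraries of each assay it had 1096 footprints and 18 RNA counts, and its mean footprint CPM was 7.89 times its mean RNA CPM, above the ratio of 98.5% of 10844 genes with at least 100 footprints and any RNA count. MXD4 was at the other end, with a ratio of 0.337, above that of 10.2% of those genes, and MXI1 was at 0.451. MYC, at 1.89, stood above 83.8%. The cause of these ratios was not tested.

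In the branch around MLX, some early changes were partly undone later. MLXIP footprints ran from 16.9 to 18.0 CPM at 15 h and from 17.1 to 20.7 CPM at 0 h, so the 2 groups overlapped. TXNIP footprints rose 2.76 ± 0.08 on the log2 scale from 5 h to 10 h after their early fall, and MLX RNA was near its 0 h level at 15 h.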
